A study of Mus musculus with 24 samples.

Results

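The comparison described here set primary mouse embryonic fibroblasts (MEFs) that had lost both Myc and Mlx (double knockout, DKO) against primary MEFs with both loci intact (wild type, WT), as 3 RNA-seq libraries of each group. Its members were the genes with at least 1 CPM, a measure of reads scaled to library size, in at least 3 of the 12 libraries of the primary table, a table that also holds MycKO and MlxKO libraries. Of 41710 genes in that table, 13101 (31.4%) qualified. Only 24 of these genes reached the filter through DKO libraries alone and 9 through WT libraries alone, and 43 did not reach 1 CPM in any DKO or WT library. Primary MEFs are short-lived connective tissue cells grown from dissociated embryos. The cultures here came from embryos of about E14 to E16, pooled within each group, and were frozen early and re-established before use. DKO cells carried floxed alleles of Myc (exons 2 and 3 lie between the LoxP sites) and of Mlx (where the sites flank exons 3 and 7) together with a Cre recombinase-estrogen receptor fusion (CreER) expressed from the ROSA26 promoter, and excision was driven by 500 nM 4-hydroxytamoxifen (4OHT) with ethanol as the vehicle. RNA was profiled on day 10. WT cells are described as MEFs with intact loci, for which a single line mostly served as the control, and knockout cells are described as kept in 4OHT after excision and withdrawn from it before assays. The labels do not say which floxed alleles the sequenced WT cells carried or whether they had received 4OHT, and DKO and WT cells came from different embryo pools. Genotype, 4OHT exposure and pool therefore cannot be told apart in any comparison with WT below. The single knockouts share the 500 nM 4OHT step with DKO cells, and between them and DKO cells genotype and pool cannot be told apart. The study calls the 3 libraries of a group biological replicates and describes triplicate RNAs, but the sources do not say that these came from separate cultures or embryo pools, so the p-values measure the spread between these libraries, which may be technical in part.

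Myc is a basic helix-loop-helix leucine zipper transcription factor that pairs with Max and binds E-boxes, of which CACGTG is the canonical form. It is known above all for driving ribosome production, nucleotide synthesis and entry into S phase, and the Mxd proteins, Mnt and Mga compete with it for Max and for many of the same sites. Mlx is the shared partner of MondoA (Mlxip) and ChREBP (Mlxipl), which respond to glucose metabolites through carbohydrate response elements built from a pair of E-box-like motifs. Txnip and Arrdc4, arrestin-domain proteins that restrain glucose uptake, are the classical targets of MondoA and Mlx. In fibroblasts, loss of Myc is known to slow or stop division.

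The promoters below are shown because each holds the canonical E-box and belongs to a gene whose level differed between DKO and WT cells. They are RefSeq windows of GRCm38.p6, from 250 bases before to 50 bases after a gene's start, and each window matched GRCm39 exactly at a single place. Wdr43 and Nop2 encode nucleolar proteins needed to assemble ribosomal subunits, Mlx is a gene knocked out here, Mxd4 encodes an antagonist of Myc, and Arrdc4 is a MondoA and Mlx target. The letters in capitals mark CACGTG, which reads the same on both strands.
Wdr43 promoter, chr17:71922960-71923259, plus strand, GRCm39: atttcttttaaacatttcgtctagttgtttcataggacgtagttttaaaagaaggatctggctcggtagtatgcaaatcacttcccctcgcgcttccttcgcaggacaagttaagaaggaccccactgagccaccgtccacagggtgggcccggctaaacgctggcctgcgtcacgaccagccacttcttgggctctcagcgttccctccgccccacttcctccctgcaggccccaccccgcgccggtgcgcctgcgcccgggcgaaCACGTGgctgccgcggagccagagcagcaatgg
Nop2 promoter, chr6:125108596-125108895, plus strand, GRCm39: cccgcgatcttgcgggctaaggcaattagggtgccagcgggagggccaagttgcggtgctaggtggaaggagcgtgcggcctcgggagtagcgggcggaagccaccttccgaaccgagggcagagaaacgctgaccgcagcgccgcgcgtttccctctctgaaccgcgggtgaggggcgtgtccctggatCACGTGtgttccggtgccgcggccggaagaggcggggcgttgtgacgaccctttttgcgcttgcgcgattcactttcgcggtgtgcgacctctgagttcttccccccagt
Mlx promoter, chr11:100977866-100978165, plus strand, GRCm39: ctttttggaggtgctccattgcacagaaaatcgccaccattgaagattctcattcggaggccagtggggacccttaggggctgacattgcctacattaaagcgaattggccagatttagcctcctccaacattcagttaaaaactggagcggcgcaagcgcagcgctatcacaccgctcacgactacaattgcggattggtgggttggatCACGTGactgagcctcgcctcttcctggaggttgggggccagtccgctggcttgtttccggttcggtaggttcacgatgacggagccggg
Mxd4 promoter, chr5:34345005-34345304, minus strand, GRCm39: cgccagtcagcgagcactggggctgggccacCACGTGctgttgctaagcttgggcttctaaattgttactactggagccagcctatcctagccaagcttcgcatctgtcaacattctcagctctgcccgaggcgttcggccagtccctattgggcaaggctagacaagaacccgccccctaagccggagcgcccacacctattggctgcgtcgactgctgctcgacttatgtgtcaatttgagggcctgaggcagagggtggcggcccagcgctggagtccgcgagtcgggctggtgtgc
Arrdc4 promoter, chr7:68398937-68399236, minus strand, GRCm39: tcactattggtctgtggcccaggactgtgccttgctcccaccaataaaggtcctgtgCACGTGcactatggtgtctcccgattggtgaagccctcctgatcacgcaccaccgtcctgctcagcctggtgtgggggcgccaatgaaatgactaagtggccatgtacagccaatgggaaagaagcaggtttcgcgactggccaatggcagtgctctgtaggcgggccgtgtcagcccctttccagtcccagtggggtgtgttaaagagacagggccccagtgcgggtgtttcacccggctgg

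CACGTG began 17 bases after the start in Wdr43 and 60, 40, 219 and 193 bases before it in Nop2, Mlx, Mxd4 and Arrdc4. Of these genes, Wdr43 (log2 fold change -1.11), Nop2 (-0.91), Mlx (-1.02) and Arrdc4 (-1.45) fell in DKO cells and Mxd4 (0.51) rose. The motif was present in 7.15% of the 32851 windows of the RefSeq table. A gene was counted if any of its windows held it, which was so for 8.09% of the 27025 genes of the RefSeq table and for 11.7% of the 10252 tested genes that had a window. The motif was present at 11 of the 47 nucleolar genes with a window (23.4%), at 6 of 20 nucleotide synthesis genes, at 6 of 36 replication genes and at 3 of 30 mitotic genes. Only 78.3% of the genes tested had a window, so the 11.7% describes those alone. A comparison across all genes tested, or of a list with them, is therefore void. Lists with windows for a smaller part of their members had the motif at 6 of 58 ribosomal protein, 4 of 16 sterol and 0 of 25 collagen genes. Comparisons of these lists are void as well. These are matches of letters and not measured binding.

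The knocked-out genes were examined first. Myc (ENSMUSG00000022346, GRCm39 chromosome 15, 61857227 to 61862223) was at 100.1, 89.8 and 91.8 CPM in the WT libraries and 21.6, 22.9 and 19.9 CPM in the DKO libraries. All DKO libraries lay far below all WT libraries, and the ratio of the means was 0.228 (log2 fold change -2.08, standard error 0.0707, limma adjusted p = 4.24e-12). Mlx (ENSMUSG00000017801, chromosome 11, 100978080 to 100983043) was at 26.02, 20.5 and 24.5 CPM in the WT libraries and 11.8, 11.99 and 9.73 CPM in the DKO libraries. Its groups did not overlap either, and the ratio of the means was 0.472 (log2 fold change -1.02, standard error 0.112, limma adjusted p = 1.48e-06). The counts are per gene and do not separate the deleted exons from the rest, so they do not measure excision.

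The test was limma on log2(CPM + 1), with all 4 primary groups fitted together and Benjamini-Hochberg adjustment over the 13101 genes. A gene is said to have risen or fallen in DKO cells where its adjusted p was under 0.05, and fold changes are on the log2(CPM + 1) scale, which understates the change of genes at low levels. Values written as mean ± SD are over the 3 libraries of a group. An exact permutation test of 3 libraries against 3 cannot go below p = 0.10, so for single genes the overlap of the libraries is given in its place. WT libraries held 16692411 to 17887312 reads on genes and DKO libraries 17667784 to 20361685, and a level of 0.153 to 0.175 CPM amounts to 3 reads, a limit set by counting error alone. Genes are not replicates, and across them Pearson's r of log2(CPM + 1) was 0.992 to 0.996 between libraries of the same group and 0.964 to 0.970 between a DKO and a WT library.

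Markers of cell types and of sex also differed between the DKO and WT libraries. Fibroblast markers dominated both groups, with 8 of 11 higher and 2 lower in DKO cells (5 higher without DKO library 1, without WT library 1 or with scaling by library totals, and 4 with no filter on low values) and a summed level of 42971 to 46578 CPM over the WT libraries and from 57849.9 to 58805 CPM over the DKO libraries. These markers include Col1a1, Col1a2 and Col3a1, which are counted again among the collagen chains below. All 15 macrophage markers tested fell (median log2 fold change -1.62), and their summed level ranged from 372 to 729.8 CPM over the WT libraries and from 133 to 295 CPM over the DKO libraries, so the sums did not overlap although the WT libraries varied widely. Xist, the RNA of the inactive X chromosome, was at 143, 176 and 186 CPM in the WT libraries and 545, 529 and 544 CPM in the DKO libraries, and the Y-linked helicase gene Ddx3y was at 50.5, 53.4 and 55.8 CPM in the WT libraries and 10.5, 10.9 and 10.1 CPM in the DKO libraries. Both signals were present in both groups, and the DKO libraries held more of the first and less of the second. Also lower were the Y-linked genes Uty (-2.20), Kdm5d (-2.04) and Eif2s3y (-2.27). The median log2 fold change of these 5 sex markers was -2.47 in DKO against MycKO and -2.38 in DKO against MlxKO cells. The epithelial keratins Krt8, Krt18 and Krt19, the epithelial markers that were detected, fell from a summed 25.8 to 30.1 CPM in WT to 5.92 to 7.05 CPM in DKO libraries. Of 3 endothelial markers tested, the receptor Kdr fell from 12.8 ± 0.0961 to 2.95 ± 0.332 CPM (log2 fold change -1.80) and Tek rose from 0.719 ± 0.223 to 1.94 ± 0.292 CPM (log2 fold change 0.78), while the defining endothelial genes Pecam1 and Cdh5 did not pass the filter. In bulk RNA, fewer cells of a type and less RNA per cell cannot be told apart. Genotype, 4OHT exposure and pool cannot be told apart for the cell type markers. The part that these differences play in the results was not tested.

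Of the 13101 genes, 6487 (49.5%) differed between DKO and WT cells, of which 3146 (24.0%) were higher and 3341 (25.5%) lower in DKO cells. The libraries did not overlap at 7960 genes (60.8%), with DKO above WT at 3925 (30.0%) and below it at 4035 (30.8%). Most of the changes were small, with a median absolute log2 fold change of 0.50 among genes called. With a further requirement of 1 or more in absolute log2 fold change, the count was 748 (5.71%), with 332 (2.53%) higher and 416 (3.18%) lower, and 2 or more was reached by 32 higher and 22 lower genes. Since 49.5% of all genes were called, a list of genes says something only where its members lean to 1 direction, and each list below is read against 24.0% higher and 25.5% lower. With reads divided by library totals in place of the deposited scaling, the median of all genes moved from -0.0023 to -0.079 on the log2 scale and the calls split into 37.2% higher against 48.5% with the deposited values.

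**Figure D1:**
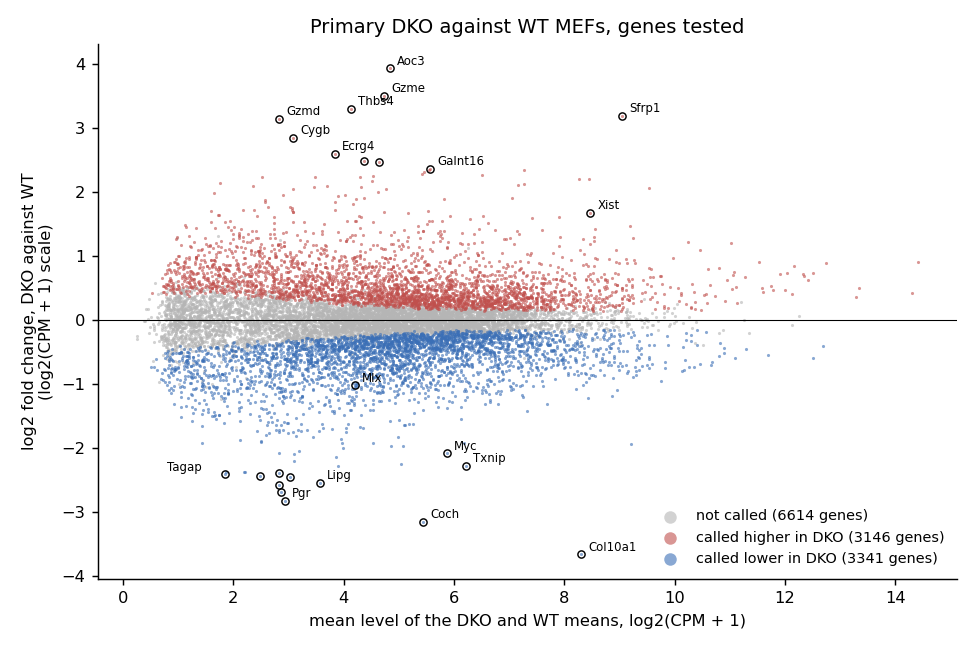
The mean level of each of the 13101 genes tested is plotted against its log2 fold change in primary DKO against WT MEFs, both on the log2(CPM + 1) scale, with genes called higher in red, called lower in blue and not called in grey. Open circles mark the 10 largest rises and 10 largest falls, Myc, Mlx, Txnip and Xist. The cloud is nearly symmetric about 0, and Sfrp1 and Col10a1 stand out as large changes of abundant transcripts.

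The 10 genes that rose most were Aoc3, Gzme, Thbs4, Sfrp1, Gzmd, Cygb, Ecrg4, Adgrd1, Cd59a and Galnt16, several of which encode secreted or cell-surface proteins. The largest was Aoc3, a cell-surface amine oxidase of vascular smooth muscle, adipocytes and endothelium, which was at 1.81, 2.44 and 3.39 CPM in the WT libraries and 48.95, 51.9 and 56.4 CPM in the DKO libraries. Every DKO library was far above every WT library (log2 fold change 3.93, standard error 0.151, limma adjusted p = 1.17e-11). Sfrp1, a secreted inhibitor of Wnt signalling, was the most abundant of them, at 94.5, 97.4 and 119 CPM in the WT libraries and 952, 897 and 1009 CPM in the DKO libraries. No library of a group came near the other group (log2 fold change 3.19, standard error 0.0826, limma adjusted p = 1.35e-13). Gzme and Gzmd, granzyme genes of a cluster on chromosome 14, rose together. Gzme was at 3.50, 3.80 and 2.75 CPM in the WT libraries and 47.3, 48.5 and 48.5 CPM in the DKO libraries (log2 fold change 3.51, standard error 0.123, limma adjusted p = 5.09e-12), and Gzmd rose from 0.435 ± 0.134 to 11.7 ± 1.03 CPM (log2 fold change 3.15). These genes share stretches of sequence with other granzyme genes, so their reads may have been split or exchanged between copies. Thbs4, a thrombospondin of tendon and muscle matrix, rose from 2.22 ± 0.0486 to 30.9 ± 3.40 CPM (log2 fold change 3.31), and Cygb, a globin of fibroblasts, rose from 1.06 ± 0.310 to 13.8 ± 2.39 CPM (log2 fold change 2.85). Ecrg4 (2.60), which encodes a secreted peptide precursor, the adhesion receptor gene Adgrd1 (2.49), the complement regulator gene Cd59a (2.46) and Galnt16 (2.36), a glycosyltransferase gene, completed the set without overlap between groups.

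The 10 largest falls were Col10a1, Coch, Pgr, Tfap2b, Cxcl15, Lipg, Greb1, Lhx2, Tagap and Tslp. Col10a1, the collagen of hypertrophic cartilage, was at 540.0, 511 and 698 CPM in the WT libraries and 45.8, 46.3 and 42.3 CPM in the DKO libraries. It was by far the most abundant gene of the set, and no DKO library came near a WT library (log2 fold change -3.66, standard error 0.0893, limma adjusted p = 1.05e-13). The MycKO and MlxKO libraries, set against the same WT libraries, were at 90.9 ± 2.44 and 139.9 ± 4.76 CPM. Coch, which encodes a secreted matrix protein best known from the inner ear, was at 79.9, 76.4 and 76.1 CPM in the WT libraries and 8.02, 7.71 and 7.77 CPM in the DKO libraries (log2 fold change -3.15, standard error 0.0923, limma adjusted p = 5.02e-13). Pgr, the progesterone receptor, was at 11.7, 13.3 and 12.04 CPM in the WT libraries and 0.511, 1.53 and 0.749 CPM in the DKO libraries, and Greb1 fell from 12.9 ± 1.81 to 1.55 ± 0.403 CPM (log2 fold change -2.44). Both are textbook targets of the estrogen receptor, of which 4OHT is a ligand, and an effect of 4OHT on them cannot be told apart from one of genotype here. Among developmental regulators, Tfap2b fell from 11.6 ± 0.224 to 0.982 ± 0.478 CPM (log2 fold change -2.69) and Lhx2, a LIM homeobox gene of limb and forebrain, fell from 8.44 ± 0.901 to 0.763 ± 0.289 CPM (log2 fold change -2.43). The cytokine genes Cxcl15 (-2.58) and Tslp (-2.39), the lipase gene Lipg (-2.54) and Tagap (-2.41), a GTPase-activating protein of immune cells, also fell without overlap. Tagap was at 4.35, 4.94 and 5.96 CPM in the WT libraries and 0.0511, 0.264 and 0.115 CPM in the DKO libraries, so that its DKO values rest on a handful of reads, and it shares sequence with other transcripts.

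**Figure D2:**
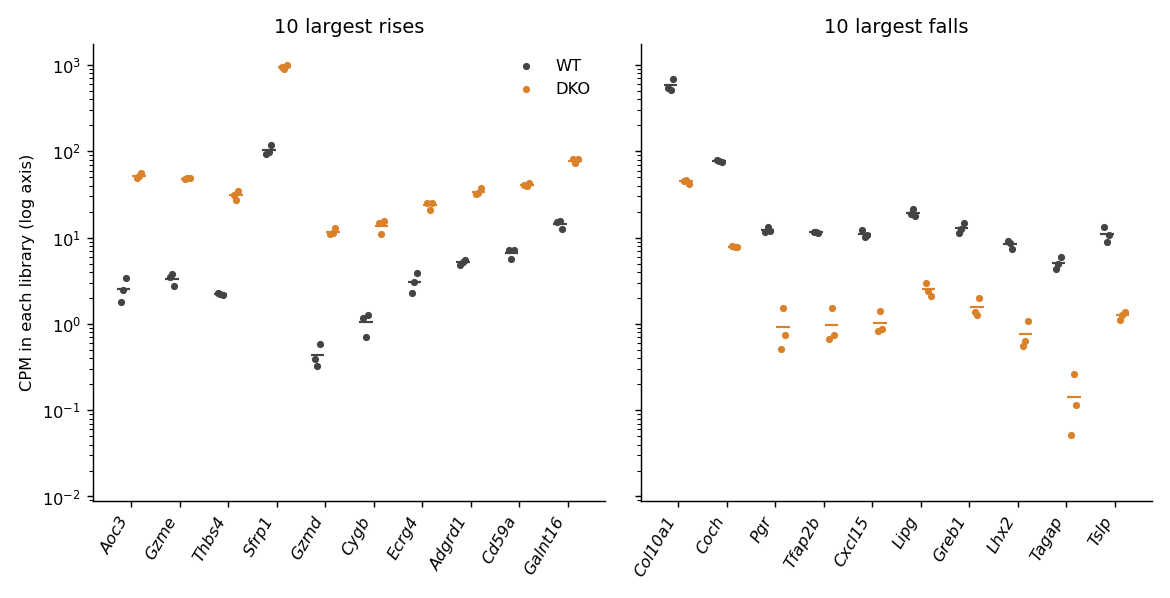
The level of the 10 largest rises and the 10 largest falls is shown in each WT (grey) and DKO (orange) library as CPM on a log axis, with a short bar at the mean of 3 libraries. The groups do not overlap at any of these genes, although the DKO libraries spread widely where levels are low, as at Tagap and Pgr, with Aoc3 rising from 2.55 ± 0.797 to 52.4 ± 3.77 CPM (log2 fold change 3.93) and Col10a1 falling from 583 ± 101 to 44.8 ± 2.21 CPM (log2 fold change -3.66).

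Within the extended Myc network, 3 of 12 genes tested rose and 3 fell, the knocked-out genes among the latter. Mycl, a Myc paralog, rose from 7.004 ± 0.798 to 13.5 ± 0.451 CPM (log2 fold change 0.86), as did the antagonists Mxd1, from 7.79 ± 0.828 to 10.998 ± 1.24 CPM (log2 fold change 0.45), and Mxd4, from 83.2 ± 2.52 to 119 ± 1.21 CPM (log2 fold change 0.51). Mxd3, the Mxd member expressed in S phase, fell from 7.41 ± 1.91 to 4.95 ± 0.273 CPM (log2 fold change -0.48), a call that was lost with any single DKO library or WT library 2 left out (limma adjusted p = 0.0558 to 0.191). Max, the obligate partner of Myc, was at 64.9 ± 2.53 CPM in WT and 58.2 ± 2.64 CPM in DKO libraries (limma adjusted p = 0.0936), and MondoA (Mlxip) at 62.9 ± 2.05 CPM in WT and 68.8 ± 1.16 CPM in DKO libraries (limma adjusted p = 0.198). Mnt, Mxi1, Mga and Mycn did not pass the test either. ChREBP (Mlxipl) did not pass the filter on low values.

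Of the targets of MondoA, ChREBP and Mlx, 3 of 6 fell and 1 rose. Txnip was at 122, 116 and 129 CPM in the WT libraries and 23.7, 26.1 and 23.6 CPM in the DKO libraries. It fell in all DKO libraries (log2 fold change -2.28, standard error 0.0923, limma adjusted p = 2.44e-11) yet remained above the 6.10 ± 0.958 CPM of MlxKO cells, and the difference between DKO and MlxKO cells passed the test (log2 fold change 1.85, adjusted p = 2.8e-10, limma with Benjamini-Hochberg adjustment). Arrdc4, whose promoter is printed above, was at 18.3, 19.3 and 21.5 CPM in the WT libraries and 7.87, 5.70 and 6.28 CPM in the DKO libraries. It too fell without overlap (log2 fold change -1.45, standard error 0.136, limma adjusted p = 2.49e-07) and was higher in DKO than in MlxKO cells (log2 fold change 1.27, limma adjusted p = 1.1e-06). Klf10, a Krüppel-like factor induced by glucose, fell from 25.9 ± 1.03 to 16.4 ± 1.21 CPM (log2 fold change -0.63), and Arrdc3, a related arrestin-domain gene, rose from 19.1 ± 1.61 to 26.9 ± 1.04 CPM (log2 fold change 0.47). Pfkfb3 was at 34.3 ± 1.12 CPM in WT and 36.8 ± 2.69 CPM in DKO libraries (limma adjusted p = 0.379) and Arrdc2 at 3.82 ± 0.454 CPM in WT and 4.32 ± 1.93 CPM in DKO libraries (limma adjusted p = 0.787).

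The genes of ribosome production fell almost without exception. Of 53 nucleolar and RNA polymerase I genes, 51 fell and 0 rose (median log2 fold change -0.81, against -0.0023 over all genes tested), and their summed level went from 4373 to 4730.5 CPM over the WT libraries and from 2406 to 2448 CPM over the DKO libraries. Dkc1, the pseudouridine synthase of box H/ACA particles and of telomerase RNA, was at 47.9, 53.5 and 44.005 CPM in the WT libraries and 12.7, 13.2 and 13.1 CPM in the DKO libraries. It showed the largest fall of the list (log2 fold change -1.82, standard error 0.0930, limma adjusted p = 3.8e-10). Npm1, a nucleolar chaperone, was at 675, 668 and 595 CPM in the WT libraries and 285, 278 and 282 CPM in the DKO libraries (log2 fold change -1.19, standard error 0.0657, limma adjusted p = 8.42e-10). Ncl, nucleolin, fell from 672 ± 44.4 to 314 ± 5.71 CPM (log2 fold change -1.09), Taf1d, a subunit of the RNA polymerase I selectivity factor, fell from 77.1 ± 2.60 to 32.6 ± 1.90 CPM (log2 fold change -1.22), and Nop58, a core protein of box C/D particles, fell from 136 ± 3.62 to 60.5 ± 1.16 CPM (log2 fold change -1.16). The members that did not pass were Polr1d, at 80.3 ± 10.5 CPM in WT and 67.4 ± 1.87 CPM in DKO libraries (limma adjusted p = 0.0648), and Imp3, at 41.5 ± 5.14 CPM in WT and 34.8 ± 1.23 CPM in DKO libraries (limma adjusted p = 0.0708).

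Cytosolic ribosomal protein genes fell by a narrower margin. Of 79 members 75 fell and 0 rose (median -0.63), and their summed level ranged from 37709.8 to 40490.5 CPM over the WT libraries and from 24754 to 25333 CPM over the DKO libraries, groups that did not overlap. Rps26 fell from 543 ± 21.3 to 299 ± 10.6 CPM (log2 fold change -0.86), Rpl12 fell from 811 ± 43.6 to 447 ± 15.4 CPM (log2 fold change -0.86) and Rpl3 fell from 925 ± 17.2 to 550.4 ± 5.59 CPM (log2 fold change -0.75). Ribosomal protein genes have many processed copies in the genome, and Rps12 (-0.89) and Rpl3 are among the members that share stretches with other transcripts. Single values are therefore uncertain, and whether the sums are less so was not tested. The remaining members were Rps15, Rpl28, Rpl38 and Rps27, and for Rps27 the libraries of the groups overlapped (64.3 ± 53.03 CPM in WT and 86.3 ± 12.8 CPM in DKO libraries (limma adjusted p = 0.162)). Mitochondrial ribosomal proteins were affected in part, with 41 of 77 lower and 0 higher (median -0.28). Omission of single libraries gave 34 to 43 lower, and scaling by library totals gave 51. Mrps6 fell most, from 50.6 ± 0.971 to 23.99 ± 0.0800 CPM (log2 fold change -1.04), followed by Mrpl1, from 17.5 ± 4.21 to 8.89 ± 0.692 CPM (log2 fold change -0.88), and Mrpl12 fell from 43.6 ± 7.32 to 26.8 ± 1.36 CPM (log2 fold change -0.67).

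The rest of the translation machinery moved the same way. Of 36 initiation and elongation factors 34 fell and 0 rose (median -0.45), as did 19 of 20 cytosolic aminoacyl-tRNA synthetases (median -0.44) and all 10 subunits of the CCT and mitochondrial chaperonins (median -0.68). Eef1b2, an exchange factor for elongation factor 1, fell from 442 ± 29.6 to 226 ± 10.4 CPM (log2 fold change -0.96), Eif5a, the hypusinated elongation factor, fell from 717 ± 46.9 to 403 ± 3.80 CPM (log2 fold change -0.83), and the cap-binding protein gene Eif4e fell from 129 ± 4.42 to 84.7 ± 3.68 CPM (log2 fold change -0.60). Eif4ebp1, which encodes an inhibitor of Eif4e, was at 103 ± 13.1 CPM in WT and 101 ± 4.29 CPM in DKO libraries (limma adjusted p = 0.956). Among chaperonins, Hspd1 was at 486, 496 and 468 CPM in the WT libraries and 208, 210.2 and 205 CPM in the DKO libraries and its co-chaperonin Hspe1 fell from 113 ± 4.12 to 54.1 ± 1.68 CPM (log2 fold change -1.05). Tcp1 of the cytosolic complex fell from 402 ± 20.8 to 249.8 ± 9.07 CPM (log2 fold change -0.68). The DKO libraries lay below the WT libraries at all 10 genes.

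**Figure D3:**
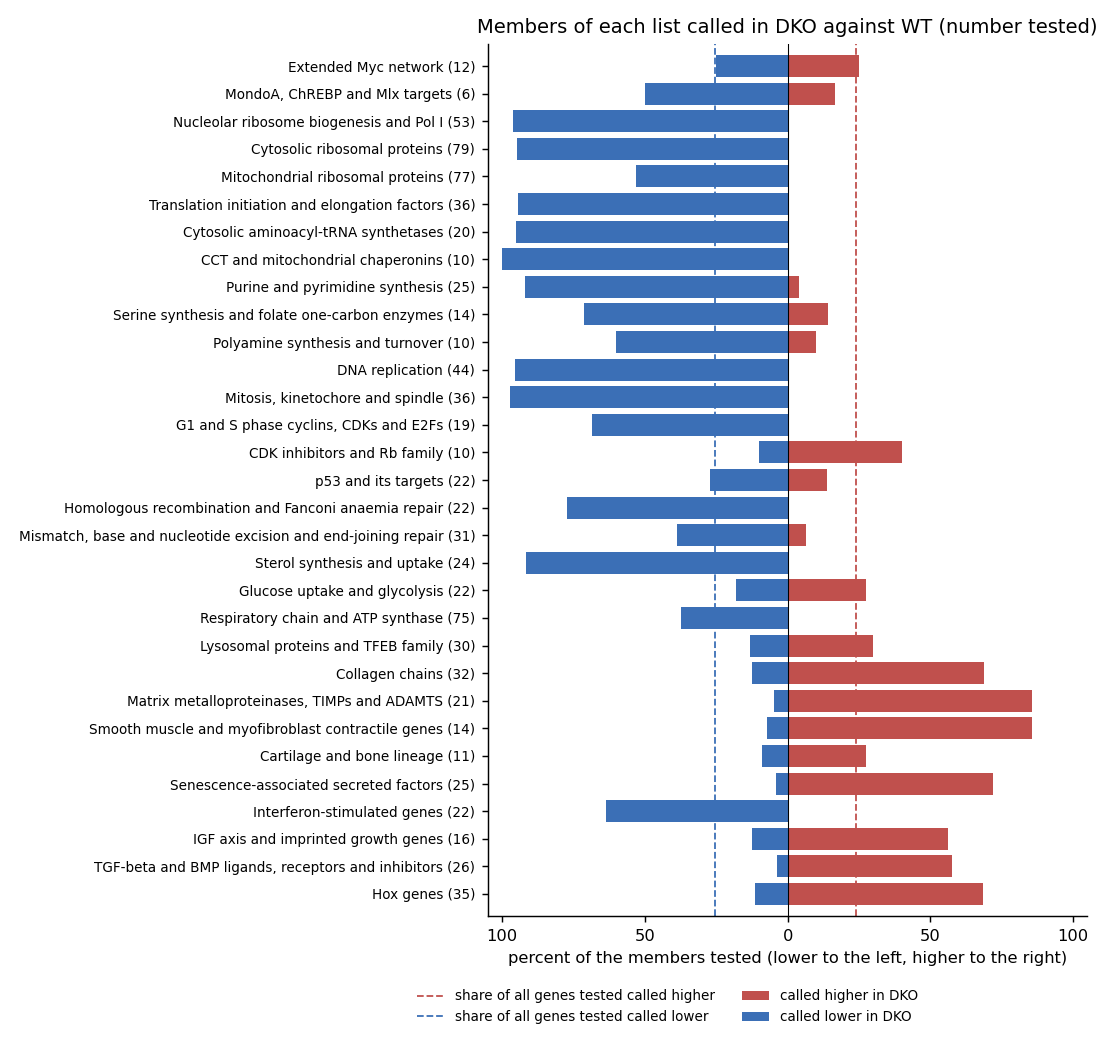
For each list of genes, bars give the percent of the members tested that were called lower (blue, to the left) or higher (red, to the right) in primary DKO against WT MEFs, with the number tested in brackets, and dashed lines give the shares among all genes tested (25.5% and 24.0%). Nucleolar, cytosolic ribosomal protein, translation, replication, mitosis and sterol lists reach past 90% on the left, and matrix protease and contractile lists past 85% on the right.

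Enzymes that make nucleotides fell as a group, with 23 of 25 lower, 1 higher and a median log2 fold change of -0.88. Cad, the trifunctional enzyme that opens pyrimidine synthesis and a classical E-box target of Myc, was at 155, 165 and 148 CPM in the WT libraries and 73.8, 71.1 and 70.1 CPM in the DKO libraries. Its groups were well apart (log2 fold change -1.11, standard error 0.0631, limma adjusted p = 1.19e-09). The ribonucleotide reductase subunit Rrm2 fell from 142 ± 11.01 to 58.2 ± 2.59 CPM (log2 fold change -1.27), the dUTPase gene Dut fell from 53.6 ± 1.24 to 22.2 ± 0.367 CPM (log2 fold change -1.24) and the nucleoside diphosphate kinase gene Nme1 fell from 89.5 ± 2.66 to 38.7 ± 0.391 CPM (log2 fold change -1.19). These are also genes of S phase, and the replication genes described below fell as well.

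In serine synthesis and the folate cycle, 10 of 14 genes fell and 2 rose. Shmt1, the cytosolic serine hydroxymethyltransferase, was at 14.4, 14.7 and 14.5 CPM in the WT libraries and 3.88, 3.80 and 3.46 CPM in the DKO libraries. It was the largest fall of the list (log2 fold change -1.72, standard error 0.104, limma adjusted p = 2.16e-09), while its mitochondrial counterpart Shmt2 fell from 208 ± 11.2 to 115 ± 3.94 CPM (log2 fold change -0.85). Psat1 of the serine pathway fell from 399 ± 2.61 to 189 ± 7.91 CPM (log2 fold change -1.07), and the mitochondrial folate enzymes Mthfd1l and Aldh1l2 fell from 68.3 ± 1.13 to 34.7 ± 2.15 CPM (log2 fold change -0.96) and from 148 ± 12.2 to 75.9 ± 5.43 CPM (log2 fold change -0.96). Aldh1l1, the cytosolic counterpart of Aldh1l2, was among the rises and went from 2.58 ± 0.645 to 4.48 ± 0.450 CPM (log2 fold change 0.63). Of 10 polyamine genes 6 fell and 1 rose. The synthetic enzymes Srm, from 156 ± 1.97 to 69.6 ± 2.43 CPM (log2 fold change -1.15), Sms, from 26.01 ± 2.51 to 12.01 ± 0.585 CPM (log2 fold change -1.05), Amd1, from 128 ± 5.95 to 59.4 ± 6.36 CPM (log2 fold change -1.098), and Odc1, from 228 ± 4.04 to 164 ± 10.3 CPM (log2 fold change -0.48), fell, and Azin1, an antizyme inhibitor that spares Odc1, fell from 105.4 ± 3.46 to 85.1 ± 2.69 CPM (log2 fold change -0.31). Oaz2, an antizyme that promotes breakdown of Odc1, rose from 64.3 ± 5.63 to 95.0 ± 7.09 CPM (log2 fold change 0.56), whereas Sat1, which acetylates polyamines for breakdown, fell from 85.9 ± 11.4 to 72.0 ± 3.24 CPM (log2 fold change -0.24) with overlap of libraries, and Oaz1 was at 208 ± 9.89 CPM in WT and 202 ± 1.70 CPM in DKO libraries (limma adjusted p = 0.639). Amd1, Sms and Oaz1 share sequence with other transcripts.

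Sterol synthesis and uptake genes, which answer to the transcription factor SREBP2, formed another group that fell nearly whole. Of 24 genes 22 fell and 0 rose (median -0.86), and the sum went from 2191 to 2322 CPM over the WT libraries and from 1236 to 1381 CPM over the DKO libraries. Idi1, the isopentenyl diphosphate isomerase, was at 93.3, 98.1 and 118 CPM in the WT libraries and 39.5, 34.5 and 30.7 CPM in the DKO libraries. It had the largest fall (log2 fold change -1.54, standard error 0.110, limma adjusted p = 1.48e-08). Fdps, farnesyl diphosphate synthase, fell from 151 ± 7.39 to 69.7 ± 2.97 CPM (log2 fold change -1.11) and Insig1, which holds SREBP precursors in the endoplasmic reticulum, fell from 101 ± 7.11 to 46.2 ± 3.86 CPM (log2 fold change -1.11). Ebp, at 22.1 ± 2.92 CPM in WT and 18.3 ± 0.690 CPM in DKO libraries (limma adjusted p = 0.067), and Tm7sf2, at 3.87 ± 0.895 CPM in WT and 4.07 ± 0.507 CPM in DKO libraries (limma adjusted p = 0.733), did not pass. In the single Mlx knockout 14 of the 24 genes rose against WT and 0 fell (background 3.75% higher), while 19 fell in MycKO cells (background 21.9% lower). These comparisons share the WT libraries.

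Genes of DNA replication showed the lowest median among the functional lists. Of 44 members 42 fell and 0 rose (median log2 fold change -0.996), and their sum went from 1699.7 to 1789 CPM over the WT libraries and from 864 to 881 CPM over the DKO libraries. Cdc6, which loads the replicative helicase, was at 18.5, 17.98 and 15.95 CPM in the WT libraries and 4.34, 4.81 and 5.87 CPM in the DKO libraries. The groups were widely apart (log2 fold change -1.63, standard error 0.117, limma adjusted p = 1.55e-08). Orc1 of the origin recognition complex fell from 10.8 ± 0.852 to 2.88 ± 0.253 CPM (log2 fold change -1.61), Mcm10 fell from 19.03 ± 0.535 to 6.47 ± 0.627 CPM (log2 fold change -1.43), the polymerase alpha gene Pola1 fell from 32.6 ± 1.196 to 11.7 ± 0.638 CPM (log2 fold change -1.41) and the helicase subunit Mcm2 fell from 84.3 ± 3.74 to 34.5 ± 1.69 CPM (log2 fold change -1.26). Orc3 and Orc4 did not pass the test.

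Mitotic genes followed, with 35 of 36 lower and 0 higher (median -0.88). Birc5, survivin of the chromosomal passenger complex, was at 49.7, 49.6 and 51.4 CPM in the WT libraries and 18.2, 22.3 and 21.5 CPM in the DKO libraries (log2 fold change -1.24, standard error 0.0995, limma adjusted p = 4.66e-08). Ect2, the exchange factor for cytokinesis, fell from 62.9 ± 3.67 to 27.3 ± 4.10 CPM (log2 fold change -1.18), the checkpoint kinases Bub1 and Ttk fell from 45.6 ± 2.71 to 20.1 ± 1.42 CPM (log2 fold change -1.14) and from 18.8 ± 1.39 to 7.99 ± 0.741 CPM (log2 fold change -1.14), and Cdk1, the mitotic kinase, fell from 92.5 ± 4.57 to 57.1 ± 5.58 CPM (log2 fold change -0.69). Pttg1, securin, was the exception at 9.96 ± 3.22 CPM in WT and 11.04 ± 1.07 CPM in DKO libraries (limma adjusted p = 0.417). Both lists were lower in DKO than in MycKO cells at part of their members. In that comparison, 19 of 44 replication and 25 of 36 mitotic genes were lower in DKO and 0 of either was higher, against 11.0% lower and 10.6% higher among all genes (21.5% in either direction). Of 19 cyclins, CDKs and E2F factors of G1 and S phase, 13 fell and 0 rose. Ccne2 fell from 28.5 ± 3.19 to 9.49 ± 0.671 CPM (log2 fold change -1.49), and the atypical repressors E2f7 and E2f8 fell from 23.7 ± 1.88 to 10.7 ± 0.281 CPM (log2 fold change -1.07) and from 21.7 ± 3.54 to 10.1 ± 0.0697 CPM (log2 fold change -1.02). Ccnd1, cyclin D1, fell from 289 ± 14.3 to 185 ± 9.09 CPM (log2 fold change -0.64), whereas Ccnd2 and Ccnd3 showed log2 differences of 0.01 and -0.002 and did not pass.

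Repair genes leaned lower to different degrees. Among 22 genes of homologous recombination and the Fanconi anaemia pathway, whose expression peaks in S phase, 17 fell and 0 rose (median -0.76). Brca1 was at 21.8, 22.2 and 18.9 CPM in the WT libraries and 8.84, 9.93 and 9.45 CPM in the DKO libraries (log2 fold change -1.08, standard error 0.116, limma adjusted p = 1.24e-06), Fancb fell from 8.45 ± 0.470 to 2.33 ± 0.478 CPM (log2 fold change -1.51), the exonuclease gene Exo1 fell from 13.997 ± 1.45 to 4.78 ± 0.677 CPM (log2 fold change -1.38) and the partner of Brca1, Bard1, fell from 11.1 ± 0.222 to 4.65 ± 0.764 CPM (log2 fold change -1.11). Fancc, Fance, Fancf, Fancg and Xrcc3 did not pass, with log2 differences between -0.04 and 0.21. Among 31 genes of mismatch, excision and end-joining repair 12 were lower and 2 higher (median -0.21), or 16 lower and 0 higher with scaling by library totals, and the difference between the lists was not tested. The uracil glycosylase gene Ung fell from 7.75 ± 0.441 to 3.21 ± 0.214 CPM (log2 fold change -1.05), Parp1 fell from 76.9 ± 3.09 to 43.3 ± 2.49 CPM (log2 fold change -0.82), and the mismatch recognition gene Msh3 fell from 10.6 ± 1.11 to 5.72 ± 0.410 CPM (log2 fold change -0.78).

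The inhibitors that oppose CDKs did not move together. Of 10 CDK inhibitor and Rb family genes, 4 rose, 1 fell and 5 did not pass. Cdkn1c (p57), an imprinted inhibitor, was at 8.07, 9.29 and 11.5 CPM in the WT libraries and 28.4, 26.4 and 27.9 CPM in the DKO libraries. It was clearly higher in DKO cells (log2 fold change 1.44, standard error 0.115, limma adjusted p = 4.64e-08). Cdkn1a (p21) was at 301, 315 and 297 CPM in the WT libraries and 354, 339.8 and 351 CPM in the DKO libraries, groups that did not overlap but lay close together, and the call was lost with scaling by library totals (log2 fold change 0.19, standard error 0.0558, limma adjusted p = 0.00825). Cdkn2b (p15) rose from 33.2 ± 2.54 to 45.1 ± 1.19 CPM (log2 fold change 0.43). Cdkn2a, which encodes p16 and p19Arf, was at 45.2 ± 2.70 CPM in WT and 47.9 ± 0.995 CPM in DKO libraries (limma adjusted p = 0.495), and Cdkn1b (p27) at 57.5 ± 5.74 CPM in WT and 59.8 ± 1.67 CPM in DKO libraries (limma adjusted p = 0.557). Of the pocket proteins, Rbl1 (p107) fell from 30.1 ± 1.70 to 16.2 ± 0.584 CPM (log2 fold change -0.85), Rbl2 (p130) rose from 33.9 ± 2.10 to 44.5 ± 0.555 CPM (log2 fold change 0.38) and Rb1 was at 25.004 ± 0.483 CPM in WT and 25.7 ± 1.12 CPM in DKO libraries (limma adjusted p = 0.806). Trp53 itself fell from 150.5 ± 4.96 to 96.1 ± 4.04 CPM (log2 fold change -0.64). Of 22 genes of the p53 list 6 fell and 3 rose, which is 27.3% and 13.6% of the list, against 25.5% and 24.0% of all genes tested. The rises were Cdkn1a, Phlda3 (log2 fold change 0.25) and Plk2 (0.24), and with scaling by library totals 0 of the list rose and 8 fell. The call of Phlda3 was also lost with no filter on low values and without any single DKO library or WT library 1 or 2. That of Plk2 was also lost without DKO library 1 or 2. Perp fell from 9.63 ± 1.42 to 3.55 ± 0.570 CPM (log2 fold change -1.22), Mdm2, the ligase that degrades p53, fell from 184 ± 6.56 to 138 ± 5.88 CPM (log2 fold change -0.42) and the antiproliferative gene Btg2 fell from 109.8 ± 10.05 to 76.9 ± 6.11 CPM (log2 fold change -0.51). Bax, Bbc3, Sesn2 and Gadd45a, targets with roles in cell death and stress, did not pass. Against MycKO cells, 9 of the 22 genes were lower in DKO cells and 0 were higher, against 11.0% lower and 10.6% higher among all genes.

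The extracellular matrix lists leaned the opposite way. Of 43 collagen chain genes 32 were tested, and 22 rose and 4 fell (median 0.45). The sum over all chains went from 44899 to 49102 CPM over the WT libraries and from 64622 to 65691 CPM over the DKO libraries, without overlap. Col1a1, the major chain of type I collagen and the most abundant gene of the list, was at 17134, 17170.2 and 17476 CPM in the WT libraries and 22892, 23695 and 22784 CPM in the DKO libraries (log2 fold change 0.42, standard error 0.0845, limma adjusted p = 0.000582). Col1a2 rose from 8579 ± 602 to 12140.5 ± 170.2 CPM (log2 fold change 0.50) and Col3a1, of type III collagen, rose from 3909 ± 557 to 6406 ± 439 CPM (log2 fold change 0.72). The largest rise was Col8a2, a chain of short network collagen, at 5.53, 6.35 and 9.70 CPM in the WT libraries and 37.97, 32.9 and 41.1 CPM in the DKO libraries (log2 fold change 2.25, standard error 0.177, limma adjusted p = 3.95e-08), followed by Col23a1, from 2.61 ± 0.385 to 6.49 ± 1.17 CPM (log2 fold change 1.05). Col10a1 was the large fall described above, and Col25a1 fell from 2.59 ± 0.604 to 0.809 ± 0.118 CPM (log2 fold change -0.98). In the short list of cartilage and bone genes, 11 of 21 were tested, 3 rose and 1 (Col10a1) fell (median -0.16). Their summed level went from 3298 to 3658 CPM over the WT libraries to 2599 to 2720 CPM over the DKO libraries, and scaling by library totals gave 3 higher and 4 lower. Comp rose from 1.65 ± 0.314 to 7.12 ± 0.302 CPM (log2 fold change 1.62), Matn4 rose from 1.58 ± 0.390 to 3.16 ± 0.352 CPM (log2 fold change 0.70) and Col2a1 rose from 65.3 ± 7.53 to 106 ± 5.42 CPM (log2 fold change 0.70). Sox9 was at 28.2 ± 1.22 CPM in WT and 25.2 ± 3.29 CPM in DKO libraries (limma adjusted p = 0.168) and Runx2 at 52.3 ± 0.941 CPM in WT and 46.1 ± 1.80 CPM in DKO libraries (limma adjusted p = 0.0775), neither of which passed the test.

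Matrix proteases and their inhibitors rose as widely as any list, with 18 of 21 higher and 1 lower (median 0.60). The summed level went from 5201 to 5472 CPM over the WT libraries and from 9708 to 9880.1 CPM over the DKO libraries. Mmp13, a collagenase, was at 36.6, 41.7 and 36.5 CPM in the WT libraries and 116, 112 and 122 CPM in the DKO libraries (log2 fold change 1.59, standard error 0.0765, limma adjusted p = 1.87e-10). Mmp2, the abundant gelatinase of fibroblasts, rose from 444 ± 25.2 to 696 ± 16.9 CPM (log2 fold change 0.65). Inhibitors rose beside the enzymes, with Timp3 going from 1256 ± 96.1 to 2908 ± 43.95 CPM (log2 fold change 1.21). Adamts15 rose from 2.76 ± 0.584 to 8.67 ± 2.23 CPM (log2 fold change 1.35) and Mmp23 rose from 30.9 ± 1.52 to 74.1 ± 2.91 CPM (log2 fold change 1.23). Mmp9 was at 44.9 ± 9.99 CPM in WT and 49.8 ± 4.34 CPM in DKO libraries (limma adjusted p = 0.281).

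Contractile genes of smooth muscle and myofibroblasts rose in DKO cells, 12 of 14 higher and 1 lower (median 0.70). Myh11, the smooth muscle myosin heavy chain, was at 33.7, 34.7 and 23.7 CPM in the WT libraries and 144, 144 and 160.4 CPM in the DKO libraries. It rose most, with every DKO library above every WT library (log2 fold change 2.26, standard error 0.120, limma adjusted p = 5.99e-10). Acta2, smooth muscle actin and the usual mark of myofibroblasts, was at 4011, 3900.5 and 3953 CPM in the WT libraries and 6338, 6619 and 6240.2 CPM in the DKO libraries (log2 fold change 0.69, standard error 0.0690, limma adjusted p = 4.96e-07). Lmod1 rose from 71.1 ± 3.72 to 173 ± 4.55 CPM (log2 fold change 1.27), Actg2 rose from 215 ± 4.49 to 491 ± 12.8 CPM (log2 fold change 1.19), Myl9 rose from 313 ± 48.2 to 667 ± 19.1 CPM (log2 fold change 1.099), Cnn1 rose from 199 ± 19.98 to 424 ± 5.99 CPM (log2 fold change 1.09) and Tagln rose from 1632 ± 268 to 2624 ± 21.9 CPM (log2 fold change 0.70). Myocd, the coactivator that drives many of these genes, was low and fell from 1.95 ± 0.128 to 1.19 ± 0.210 CPM (log2 fold change -0.43), a call lost without DKO library 2 or 3 or WT library 1 or 2, and desmin (Des) was at 81.5 ± 4.50 CPM in WT and 79.0 ± 3.599 CPM in DKO libraries (limma adjusted p = 0.735). Of 26 TGF-beta and BMP family genes tested, 15 rose and 1 fell (median 0.29). Gdf10, a divergent BMP ligand, was at 20.9, 23.9 and 24.1 CPM in the WT libraries and 87.8, 85.6 and 91.6 CPM in the DKO libraries (log2 fold change 1.90, standard error 0.0907, limma adjusted p = 1.78e-10). Ltbp2, a matrix protein related to the latent TGF-beta binding proteins, rose from 899 ± 11.9 to 1916 ± 31.9 CPM (log2 fold change 1.09), Gdf6 rose from 10.3 ± 0.424 to 19.9 ± 2.61 CPM (log2 fold change 0.88) and the procollagen protease gene Bmp1 rose from 360.0 ± 12.3 to 571 ± 4.67 CPM (log2 fold change 0.66). Tgfb1 was at 97.7 ± 6.502 CPM in WT and 104 ± 2.99 CPM in DKO libraries (limma adjusted p = 0.396).

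Factors often listed as secreted by senescent cells rose at 18 of 25 genes tested and fell at 1 (median 0.57). Igfbp3, which binds insulin-like growth factors, was at 41.9, 49.6 and 77.7 CPM in the WT libraries and 209.8, 196 and 216 CPM in the DKO libraries (log2 fold change 1.91, standard error 0.142, limma adjusted p = 2.29e-08). Tnfrsf11b, osteoprotegerin, rose from 44.04 ± 3.93 to 138 ± 7.53 CPM (log2 fold change 1.63), Hgf rose from 11.4 ± 1.09 to 23.6 ± 1.17 CPM (log2 fold change 0.99) and Il6, low in both groups, rose from 3.32 ± 0.442 to 8.75 ± 1.15 CPM (log2 fold change 1.17). The chemokine genes Ccl2, Cxcl1, Cxcl2 and Cxcl5 did not pass, with Ccl2 at 63.4 ± 11.5 CPM in WT and 50.1 ± 5.59 CPM in DKO libraries (limma adjusted p = 0.063) and Cxcl1 at 7.57 ± 0.248 CPM in WT and 9.15 ± 1.06 CPM in DKO libraries (limma adjusted p = 0.197). The list shares Mmp13 with the proteases. In the IGF axis and among imprinted growth genes, 9 of 16 rose and 2 fell. The largest rise of this list was Cdkn1c (log2 fold change 1.44), which is also counted among the CDK inhibitors. Igf1 was at 43.7, 44.5 and 47.6 CPM in the WT libraries and 104, 99.6 and 110.3 CPM in the DKO libraries (log2 fold change 1.19, standard error 0.0888, limma adjusted p = 2.26e-08), and Igf2, which shares stretches of sequence with another annotated gene, rose from 464 ± 36.5 to 726 ± 34.4 CPM (log2 fold change 0.65). The imprinted noncoding RNA Meg3 rose from 351 ± 14.99 to 867 ± 136 CPM (log2 fold change 1.29), while Peg10, derived from a retrotransposon, fell from 30.2 ± 1.65 to 16.3 ± 0.705 CPM (log2 fold change -0.85). H19 was at 569.7 ± 39.2 CPM in WT and 597 ± 61.7 CPM in DKO libraries (limma adjusted p = 0.612).

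Glucose uptake and glycolysis genes went both ways, 6 of 22 higher and 4 lower (median 0.05), close to the shares among all genes, while scaling by library totals gave 5 higher and 7 lower (median -0.029). Slc2a1, the glucose transporter Glut1, was at 131, 122 and 126 CPM in the WT libraries and 185, 191 and 186 CPM in the DKO libraries (log2 fold change 0.57, standard error 0.0608, limma adjusted p = 1.12e-06). Slc16a3, which exports lactate, rose from 81.6 ± 13.8 to 124 ± 5.26 CPM (log2 fold change 0.62), Ldhb rose from 15.5 ± 1.25 to 24.2 ± 0.522 CPM (log2 fold change 0.62) and Pfkl, liver phosphofructokinase, rose from 106 ± 10.02 to 152 ± 10.3 CPM (log2 fold change 0.51), whereas the lactate and pyruvate carrier Slc16a1 fell from 44.8 ± 2.58 to 27.9 ± 1.23 CPM (log2 fold change -0.67). The list stood differently in the single knockouts, with 13 of 22 genes lower and 1 higher in MycKO, and 10 lower and 1 higher in MlxKO cells, both against the same WT libraries (background 21.9% lower and 20.4% higher for MycKO, 5.14% and 3.75% for MlxKO). Tested directly, 15 of the 22 genes were higher in DKO than in MycKO cells and 0 were lower, against 10.6% and 11.0% of all genes. For Slc16a3 the means were 50.6 ± 8.52 CPM in MycKO and 45.3 ± 1.86 CPM in MlxKO cells, below the WT mean of 81.6 CPM, while the DKO mean of 124 CPM lay above it.

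Nuclear genes of the respiratory chain and ATP synthase fell at 28 of 75 members (37.3%, against 25.5% of all genes) and rose at 0 (median -0.14). Omission of single libraries gave 20 to 30 lower, and scaling by library totals gave 34. Changes were small, with the largest at Cycs, cytochrome c, which fell from 62.1 ± 2.84 to 36.9 ± 0.210 CPM (log2 fold change -0.73), and Cox5a, Uqcrc1 and Cox7b fell from 77.4 ± 5.06 to 53.5 ± 1.79 CPM (log2 fold change -0.52), from 182 ± 4.14 to 130.4 ± 4.15 CPM (log2 fold change -0.48) and from 51.97 ± 6.24 to 37.9 ± 1.03 CPM (log2 fold change -0.44). Lysosomal genes rose at 9 of 30 members (30%) and fell at 4 (13.3%), against 24.0% higher and 25.5% lower among all genes. Scaling by library totals gave 7 higher and 6 lower (median 0.028), and omission of single libraries gave 7 to 11 higher. The protease genes Ctsf and Ctsh rose from 13.2 ± 0.778 to 31.2 ± 1.11 CPM (log2 fold change 1.18) and from 12.5 ± 1.04 to 27.2 ± 2.29 CPM (log2 fold change 1.06), and Gusb, beta-glucuronidase, fell from 89.0 ± 8.52 to 53.4 ± 3.15 CPM (log2 fold change -0.72). Ctss, a cathepsin of macrophages, fell from 23.6 ± 7.49 to 5.76 ± 3.28 CPM (log2 fold change -1.92), as did the macrophage markers.

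Macrophage genes fell at all 15 markers tested. Lyz2, lysozyme, was at 298, 234 and 152 CPM in the WT libraries and 66.7, 57.1 and 142 CPM in the DKO libraries. Csf1r, the receptor that macrophages need to survive, was at 63.7, 52.6 and 34.3 CPM in the WT libraries and 12.98, 10.9 and 23.4 CPM in the DKO libraries, and Laptm5 was at 65.6, 56.3 and 35.2 CPM in the WT libraries and 9.45, 10.8 and 18.1 CPM in the DKO libraries. The WT libraries themselves differed by a wide margin, but none came down to a DKO library at these 3 genes. At Tyrobp, Cd14 and Itgam the libraries overlapped, and the calls of Cd14 and Itgam were lost without DKO library 1 or WT library 1, that of Cd14 also without WT library 2 and that of Itgam without DKO library 2. The MycKO libraries, from a further pool, were lower still, with Lyz2 at 36.3 ± 9.67 CPM, and MlxKO libraries were at 197 ± 26.8 CPM. Interferon-stimulated genes fell at 14 of 22 members and rose at 0 (median -0.36). Omission of single libraries gave 11 to 15 lower, and scaling by library totals gave 18. In MycKO cells 21 of the 22 were lower than in the same WT libraries (median -1.31, background 21.9% lower). Set against MycKO cells, 21 were higher in DKO cells and 0 lower, against 10.6% higher and 11.0% lower among all genes. Oas1a was at 28.2, 20.96 and 23.2 CPM in the WT libraries and 10.99, 11.1 and 11.1 CPM in the DKO libraries (log2 fold change -1.05, standard error 0.140, limma adjusted p = 1.24e-05), and Oasl1 fell from 3.78 ± 1.18 to 1.53 ± 0.128 CPM (log2 fold change -0.89), Rtp4 from 32.6 ± 4.62 to 17.4 ± 1.33 CPM (log2 fold change -0.86) and Cmpk2 from 3.97 ± 0.918 to 1.96 ± 0.296 CPM (log2 fold change -0.74). Oas1a and Rtp4 share sequence with related transcripts. Isg15, a ubiquitin-like modifier, was at 63.9 ± 18.5 CPM in WT and 48.4 ± 5.36 CPM in DKO libraries (limma adjusted p = 0.175). The summed level of the list ranged from 915 to 1109.6 CPM over the WT libraries and from 758 to 832 CPM over the DKO libraries. The macrophage markers moved in the same direction in the same libraries, and their part in the interferon and Ctss values was not tested.

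Hox genes, which keep a record of where along the body and limb a fibroblast came from, mostly rose, with a few falls. Of 39 Hox genes 35 were tested, and 24 rose and 4 fell (median 0.58). The falls were Hoxd11, Hoxd12, Hoxd13 and Hoxa13, at the 5′ ends of the Hoxd and Hoxa clusters, which mark the distal limb. Hoxd13 was at 44.4, 46.2 and 44.9 CPM in the WT libraries and 11.9, 11.8 and 9.04 CPM in the DKO libraries (log2 fold change -1.96, standard error 0.122, limma adjusted p = 3.31e-09), and Hoxa13 fell from 7.002 ± 0.812 to 3.004 ± 0.513 CPM (log2 fold change -1.002). The 5′ genes of the Hoxc cluster went the other way, and Hoxc12, Hoxc11 and Hoxc13 rose from 0.150 ± 0.0286 to 2.22 ± 0.153 CPM (log2 fold change 1.48), from 2.50 ± 0.609 to 6.37 ± 0.393 CPM (log2 fold change 1.09) and from 1.15 ± 0.192 to 3.30 ± 0.864 CPM (log2 fold change 0.99). Most genes of middle and 3′ position rose, Hoxb3 from 8.26 ± 0.997 to 18.6 ± 1.38 CPM (log2 fold change 1.08), Hoxa7 from 5.94 ± 0.765 to 13.4 ± 0.606 CPM (log2 fold change 1.06) and Hoxa5 from 3.38 ± 0.289 to 8.09 ± 0.813 CPM (log2 fold change 1.05) among them. In MycKO cells Hoxd13 was at 13.4 ± 2.53 CPM and in MlxKO cells at 63.4 ± 4.70 CPM. The labels do not say which body regions entered each pool. Of the Hox genes given here with values, Hoxa13, Hoxc11, Hoxc13, Hoxb3, Hoxa7 and Hoxa5 were chosen after their values were seen.

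**Figure D4:**
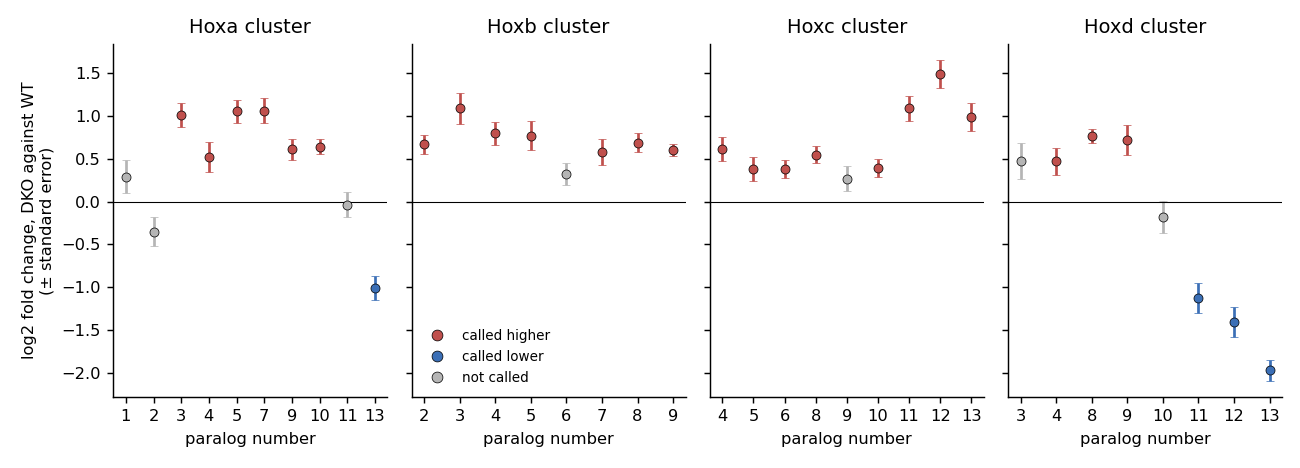
Log2 fold change in primary DKO against WT MEFs is plotted for each Hox gene tested, by cluster and paralog number, with bars of ± 1 standard error from limma and colours for genes called higher (red), lower (blue) or not called (grey). Hoxd values step down from Hoxd9 to Hoxd13, which reached -1.96, while Hoxb and Hoxc values lie above 0.

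The same genotypes were also sequenced after immortalization with SV40 T antigen, which inactivates p53 and the Rb family. That table was normalized separately and was not tested against the primary one. In it, 2434 of 12880 genes (18.9%) differed between DKO and WT cells, 1338 (10.4%) higher and 1096 (8.51%) lower. Of 12402 genes tested in both tables, 6084 were called in primary and 2367 in immortalized cells, and 1346 were called in both. Of these, 1054 had the same direction, which was 17.3% of the primary and 44.5% of the immortalized calls, and 292 had opposite directions. Where both tables reached 1 in absolute log2 fold change, 73 genes had the same direction (13.0% of 563 primary and 14.6% of 501 immortalized calls) and 18 the opposite. The groups did not carry over alike. Sterol genes fell in immortalized cells at 18 of 24 members (median -0.59) and contractile genes rose at 10 of 12 (median 1.205), among them Myh11 (2.35) and Acta2 (1.35). Nucleolar genes fell at 17 of 53 (median -0.42) and ribosomal protein genes at 22 of 79 (median -0.64, against -0.63 in primary cells). Replication genes fell at 4 of 44 (median -0.13), and mitotic genes had 1 higher and 1 lower (median 0.05), against -0.88 in primary cells. Txnip (log2 fold change -4.68) and Myc (-3.38) fell in both tables.

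**Figure D5:**
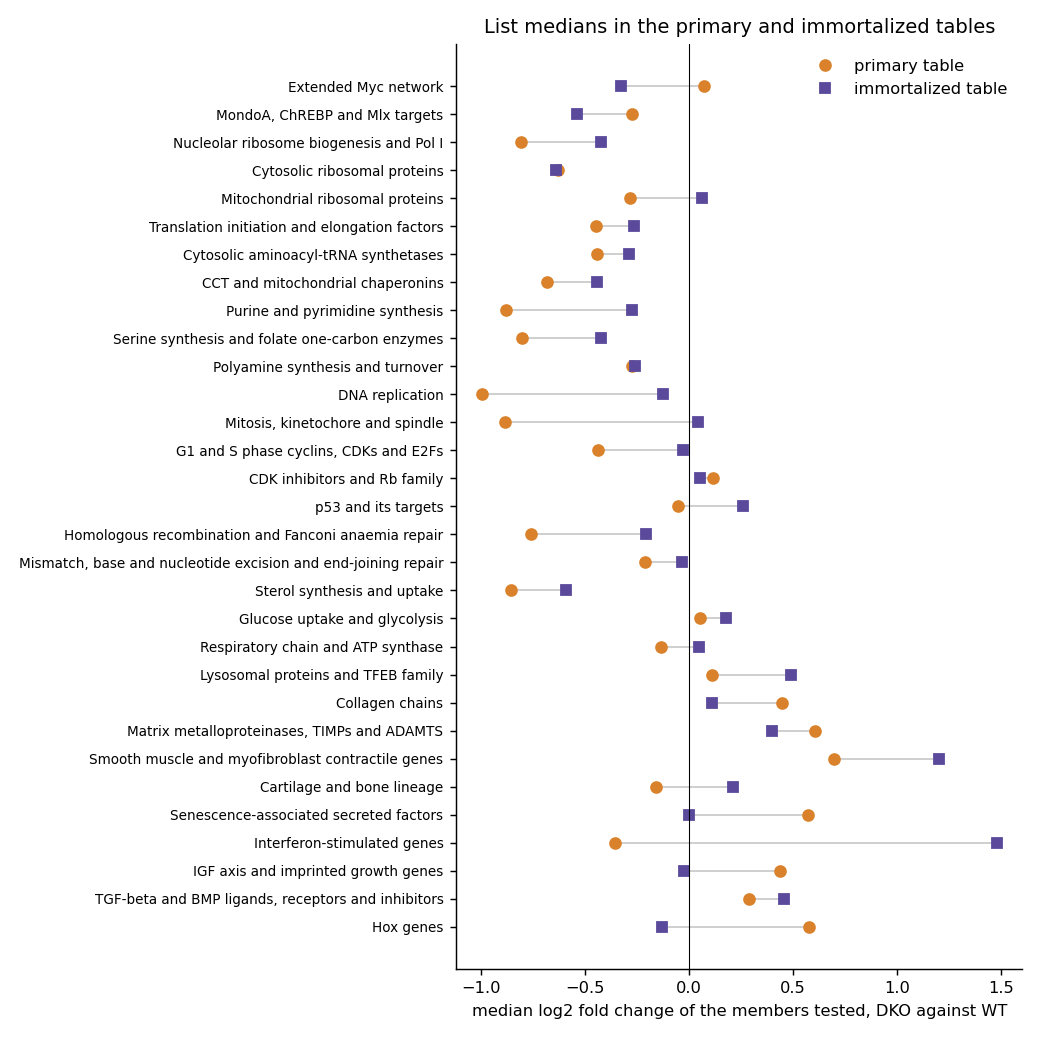
The median log2 fold change of the members tested of each list is shown for DKO against WT in the primary table (orange circles) and in the immortalized table (purple squares), joined by a grey line. Replication and mitosis medians lie near -0.996 and -0.88 in primary cells and near 0 in immortalized cells, while sterol and contractile medians keep their side of 0.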

How the data were processed

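Poly-A RNA was made into directional libraries and sequenced on a NovaSeq instrument. The authors used CLC Genomics Workbench and GRCm39 and deposited a signal per gene in CPM, already scaled between libraries by a factor that is not given in the sources used here. Each column was assigned to its group by its name. All 202444 nonzero primary values (100%) were whole multiples of what a single read is worth, within 0.01, which gave the reads per library.

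The deposited signal was tested as log2(CPM + 1). The tool was limma 3.58.1 (R 4.3.3), two-sided, with an intensity-dependent variance prior, all 4 groups of a table in 1 fit, no covariates, and Benjamini-Hochberg adjustment at 0.05. The scripts were tested on simulated data. Alternatives were edgeR 4.0.16 and DESeq2 1.42.0 run on recovered reads, other scalings, filters and pseudocounts, and omission of each library. Comparisons of DKO with single knockouts were added after the data were seen.

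The members and the 39 gene lists, cell type markers included, were chosen with earlier results of these data known, and no list was tested as a set. Genes named were Myc and Mlx, the 10 largest rises and 10 largest falls called without overlap of libraries (a mean of at least 5 CPM in the higher group, predicted genes left out), for each list its head gene and up to 4 of its largest changes called without overlap (all genes of lists of up to 14), promoters of called nucleolar, Myc network and Mlx target genes with CACGTG, members that failed the test, and cell type markers. Phlda3, Plk2, Mdm2, Pfkl, Hgf, Cox7b and a few more Hox genes were chosen after their values were seen. Of the list members, 35 were matched to the table through GENCODE names. More than 15% of the 50-base transcript stretches of Itgam, Igf2, Amd1, Tagap, Rtp4, Gzme, Krt8, Rps12, Gzmd, Cycs, Rps27, Oaz1, Rpl3, Hspd1, Idi1, Rpl38, Oas1a and Sms occur in another gene, so their values are uncertain. Some genes that the rule would name are not reported here.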

Additional observations from a re-analysis of the deposited data

Results flagged for a closer look

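For 18 of the genes named or shown as markers, all DKO libraries lay to the same side of WT in primary cells and on the opposite side in immortalized cells. The tables were normalized separately and the difference between them was not tested. Values are log2 fold changes of DKO against WT, with the primary one given before the immortalized one.

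Thbs4, the thrombospondin among the largest rises, had 3.31 and -3.58. Its mean went from 149.9 to 11.5 CPM in immortalized and from 2.22 to 30.9 CPM in primary cells. Igfbp3, the IGF-binding protein, had 1.91 and -2.06, and Sfrp1, the secreted Wnt inhibitor, had 3.19 and -1.03, although Sfrp1 was low in immortalized cells, at 2.89 CPM in WT and 0.903 CPM in DKO. Ccnd1, cyclin D1, had -0.64 and 1.98, and its mean went from 225 to 697 CPM in immortalized and from 289 to 185 CPM in primary cells.

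Among cell cycle genes, E2f8 had -1.02 and 0.56, Cdkn1c had 1.44 and -0.72 and Rbl2 had 0.38 and -0.19. Of the fibroblast markers, Col3a1 had 0.72 and -0.78, Thy1 had 0.19 and -1.63 and Vim had -0.54 and 0.31. The developmental regulator Tfap2b had -2.69 and 0.33. The interferon-stimulated genes Oas1a and Oasl1 had -1.05 and 1.88, and -0.89 and 1.44. Of the markers of other cell types, Cd68 had -1.74 and 0.63, Kdr had -1.80 and 0.44, Krt19 had -1.16 and 1.03, Map2 had -0.71 and 0.52 and Lpl had 0.38 and -0.91. In immortalized cells, the limma adjusted p of Tfap2b, Cdkn1c, Rbl2, Oas1a, Oasl1, Kdr, Map2, Vim and Thy1 was above 0.05. The primary call of Thy1 was lost with any single library left out, with no filter on low values and with scaling by library totals.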

How the results depend on the processing

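No paired analysis was possible because the numbers in the column names match no replicate number of the labels. With a minimum absolute log2 fold change of 1, the calls dropped from 6487 to 748, of which 332 were higher and 416 lower. Under the other alternatives run, the number of calls lay between 5563 (a filter at a mean of 5 CPM, which tests fewer genes) and 7152 (DKO and WT libraries alone in the fit). Omission of each library in turn gave 5648 to 6123 calls, with 2690 to 2952 higher and 2928 to 3171 lower, and log2 fold changes of -2.13 to -2.03 for Myc and -1.11 to -0.931 for Mlx. edgeR called 6503 and DESeq2 6488 genes. Division by library totals gave 6675 calls, of which 37.2% were higher, against 48.5% with the deposited scaling. The deposited CPM summed to 971446 to 975490 over the WT libraries and 1017517 to 1040460 over the DKO libraries. The deposited scaling thus set DKO values higher relative to WT than library totals do. Which scaling is closer to the true levels was not tested. Of the 691 listed or named genes called, between 0 and 45 lost their call under an alternative and 0 changed sign. Depth limits genes near the level of 3 reads (0.153 to 0.175 CPM), such as Tagap in DKO and Hoxc12 in WT libraries, whose fold changes depend on the pseudocount. With no filter on low values, the calls of Col1a1, Mxd3, Cd14 and Cebpa were lost as well, and the call of Myocd was lost with DESeq2.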

Other observations

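Of 6 neural and glial markers tested, S100b, a calcium-binding protein of glia, rose from 0.412 ± 0.110 to 3.66 ± 0.779 CPM (log2 fold change 1.71), while Map2 fell from 15.3 ± 2.62 to 8.93 ± 0.906 CPM (log2 fold change -0.71). Sox10, the regulator of neural crest and glia, was at 4.83 ± 0.178 CPM in WT and 4.09 ± 0.371 CPM in DKO libraries (limma adjusted p = 0.167). Of 4 adipocyte markers tested, Fabp4 fell from 8.19 ± 0.353 to 5.04 ± 0.327 CPM (log2 fold change -0.61), and Lpl, lipoprotein lipase, rose from 54.7 ± 4.80 to 72.0 ± 11.04 CPM (log2 fold change 0.38), as did the adipogenic factor gene Cebpa (log2 fold change 0.39, a call lost with any single DKO library or WT library 1 left out, or with scaling by library totals), while Pparg, the master regulator, was at 3.65 ± 0.892 CPM in WT and 3.13 ± 0.387 CPM in DKO libraries (limma adjusted p = 0.424). Of the skeletal muscle markers only Acta1 passed the filter, at 50.8 ± 4.02 CPM in WT and 44.3 ± 2.11 CPM in DKO libraries (limma adjusted p = 0.0709).

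Of 453 long noncoding RNA genes tested, 87 were higher and 54 lower in DKO cells, against 3057 higher and 3283 lower of 12624 protein-coding genes. Meg3 and Xist, with the values given above, were among the rises.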
